A study of Mus musculus with 5 samples.

Results

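The 10 Wnt ligand genes described here are part of the 19 mouse Wnt genes in the table of 45706 rows and were selected by gene symbol: Wnt2, Wnt2b, Wnt4, Wnt5a, Wnt5b, Wnt6, Wnt9a, Wnt10b, Wnt11 and Wnt16. RNA was sequenced from PDGFRa+ cells, sorted by fluorescence as mammary fibroblasts, of Balb/c mice. Mammary glands 4 and 5 of nulliparous females gave 2 libraries, and the same glands on day 6 after weaning, the involution group, gave 3. PDGFRa is a growth factor receptor on the surface of fibroblasts, and after weaning the gland involutes as its secretory epithelium dies back. The labels give no age, transgene or treatment for either group, and the number of animals behind each library is not given in the sources used here, so p-values measure the spread between these libraries. A past pregnancy and lactation set the groups apart as well and cannot be told apart from involution.

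Wnt proteins are secreted, lipid-modified signals that act over short distances. The acyltransferase Porcn attaches the lipid, the carrier Wls brings the protein to the cell surface, and receptors of the Frizzled family receive it. With the co-receptors Lrp5 and Lrp6 this stabilises β-catenin, which then acts with TCF and LEF transcription factors, while signals through Ror2 or Ryk can run without β-catenin. In the mouse mammary gland, Wnt4 is known as a mediator of progesterone in the epithelium, Wnt2 and Wnt5a are known as stromal ligands, and Wnt5a limits branching.

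The RNA of 3 of the 10 ligand genes, Wnt4, Wnt6 and Wnt5a, was lower at involution day 6 in limma, a linear model that moderates each gene's variance, at an adjusted p under 0.05 (Benjamini-Hochberg, 28311 genes). On the unlogged scale Wnt4 was 6.51-fold, Wnt6 6.03-fold and Wnt5a 2.11-fold lower. Over all genes tested 1.97% were called, 0.830% lower and 1.14% higher. Of the 10 ligand genes, 0 were called higher, and at an unadjusted p under 0.05 in limma 5 were lower, beside 10.6% of all genes tested, and 1, Wnt16, was higher, beside 9.36%. A single gene of 10 is near that share. In a test limited to the 15912 genes with a mean at least 10 units above a row without reads, Wnt2b passed too, so that 4 of the 10 were called lower, beside 4.66% of those genes, and 0 higher, beside 6.65%. Of these 15912 genes, 197 were called lower and 311 higher in limma over all 28311 genes. At an unadjusted p under 0.05 in that fit, 2283 of the 15912 were lower and 2256 higher. The 10 ligand genes all passed this filter. Their median log2 difference was -0.78, beside 0.00 over all genes tested and -0.03 over those past the filter. Without any 1 of the 5 libraries, 0 of the 10 passed over all 28311 genes in limma. Wnt4, Wnt6, Wnt5a and Wnt2b were each called in all 5 of these reduced comparisons when the filter was applied, a combination added after seeing the data.

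**Figure D1:**
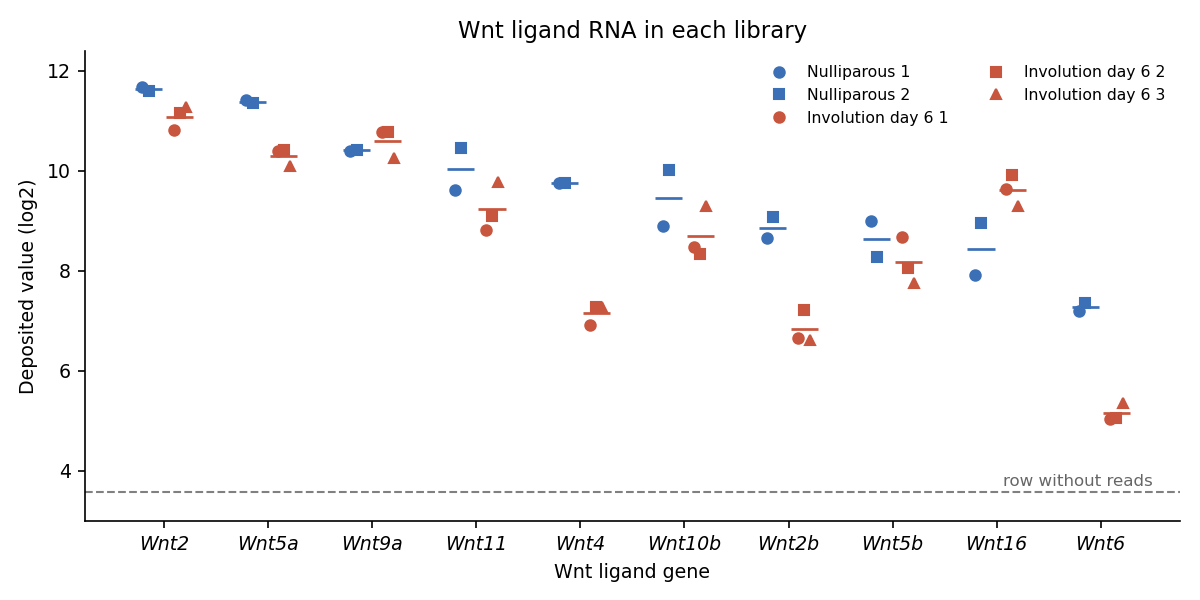
Deposited log2 value of each Wnt ligand gene in each library, with nulliparous libraries in blue, involution day 6 libraries in red and group means as short lines. The dashed line is the value of a row without reads, 3.57. The groups stand apart downward for Wnt2, Wnt5a, Wnt4, Wnt2b and Wnt6 and upward for Wnt16.

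Values are the authors' log2 values of a scaled count plus an offset of about 11.85, so a gene without reads stands near 3.57, and for weakly expressed genes log2 differences come out too small. Units are these values unlogged with the offset removed. The unlogged columns summed to 37600000 to 43000000 units per library. Pdgfra, the receptor used for the sort, had a mean of 15.90 ± 0.04 (SD) over the 2 nulliparous libraries and of 15.89 ± 0.20 (SD) over the 3 involution libraries. Because these are bulk samples, fewer cells that express a gene and less RNA per cell cannot be told apart.

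Wnt4 lies on chromosome 4 from 137277489 to 137299726 (plus strand, GRCm38). Its deposited values were 9.76 and 9.76 in nulliparous replicates 1 and 2 and 6.92, 7.27 and 7.27 in involution replicates 1, 2 and 3. The nulliparous libraries were equal to 2 decimals and every involution library lay far below them. The log2 difference was -2.61 ± 0.15 (SE, n = 2 and 3; adjusted p = 0.0319 in limma, and 0.00214 with the filter on low values). In units the mean went from 854 to 131. Without 1 library at a time the log2 difference ran from -2.67 to -2.49, with adjusted p from 0.0839 to 0.153 over all genes in limma and from 0.00491 to 0.0233 with the filter.

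Wnt6, a ligand that acts through β-catenin in several developing tissues, lies on chromosome 1 from 74771892 to 74785322 (plus strand). Its values were 7.20 and 7.35 in nulliparous libraries, against 5.04, 5.05 and 5.35 at involution. The groups did not overlap, and Wnt6 had the lowest mean level per length of the 10 in both. It fell by 2.13 ± 0.22 on the log2 scale (SE, n = 2 and 3; adjusted p = 0.04 in limma, and 0.00429 with the filter). The involution libraries held 21.1, 21.3 and 28.8 units against 135 and 152, and with the offset removed and 1 added the log2 difference was -2.55. Without 1 library at a time the adjusted p ran from 0.0983 to 0.158 in limma, and from 0.011 to 0.036 with the filter.

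Wnt5a, the best-known ligand of β-catenin-independent signalling, lies on chromosome 14 from 28504750 to 28527448 (plus strand). Its values were 11.41 and 11.35 in nulliparous libraries, against 10.40, 10.41 and 10.10 at involution. Both groups were tight and lay apart. The log2 difference was -1.08 ± 0.12 (SE, n = 2 and 3; adjusted p = 0.0427 in limma, and 0.00563 with the filter). Without 1 library at a time the adjusted p ran from 0.108 to 0.153 in limma, and from 0.01 to 0.0431 with the filter. The kit does not mark strand, and the antisense gene Gm2670 overlaps an exon of Wnt5a, so their reads cannot be told apart where they overlap. Gm2670 itself stood at a mean of 5.61 and 4.57, far below Wnt5a in both groups.

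Wnt2b, a ligand that acts through β-catenin, lies on chromosome 3 from 104945272 to 104961921 (minus strand). It stood at 8.65 and 9.07 in nulliparous libraries, against 6.66, 7.22 and 6.62 at involution. On the deposited scale the size of its difference, -2.03 ± 0.27 (SE, n = 2 and 3), was close to that of Wnt6. In units Wnt2b was 4.39-fold lower and Wnt6 6.03-fold. Wnt2b missed the threshold over all genes (adjusted p = 0.0516 in limma) and passed with the filter (0.00714).

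Wnt2, a ligand known from the stroma of several organs, lies on chromosome 6 from 17988940 to 18030585 (minus strand). Its values were 11.67 and 11.59 in nulliparous libraries, against 10.81, 11.16 and 11.28 at involution. All 3 involution libraries lay below both nulliparous ones. The difference of -0.55 ± 0.16 (SE, n = 2 and 3) did not pass in limma (adjusted p = 0.162, and 0.0637 with the filter).

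Wnt16, a ligand known for its role in bone, lies on chromosome 6 from 22288227 to 22298522 (plus strand). It had 7.92 and 8.96 in nulliparous libraries, against 9.63, 9.92 and 9.29 at involution. It was the one ligand gene whose involution libraries all lay above the nulliparous ones, 2.19-fold in units. The nulliparous libraries differed from each other by 1.04, and the difference of 1.17 ± 0.38 (SE, n = 2 and 3) did not pass in limma (adjusted p = 0.196, and 0.0732 with the filter). The size rested on which nulliparous library was kept. Without nulliparous replicate 1 the log2 difference was 0.65 (adjusted p = 0.408 in limma, and 0.224 with the filter), and without nulliparous replicate 2 it was 1.69 (0.125, and 0.0372 with the filter). Across the 10 genes the groups did not overlap downward for 5 and upward for 1, beside 25.1% and 21.9% of the genes past the filter, 47.0% in either direction. Over all 28311 genes with reads, 17.9% did not overlap downward.

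**Figure D2:**
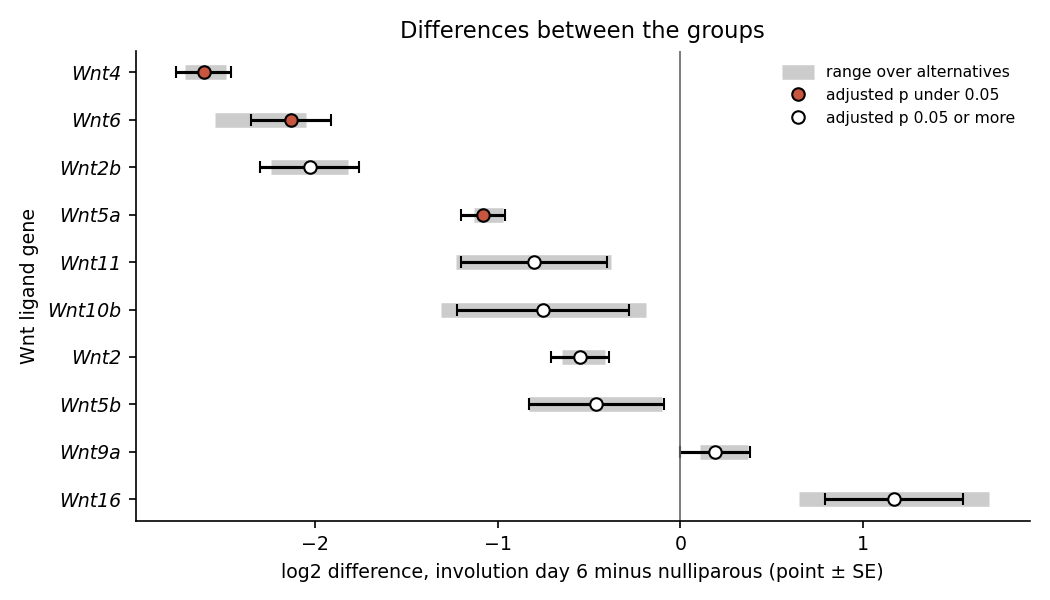
Log2 difference of each Wnt ligand gene, involution day 6 minus nulliparous, as a point with its SE. Grey bars span the values over 17 alternative settings and filled points passed at 0.05. Wnt4, Wnt6, Wnt2b and Wnt5a lie at -1.08 or lower, Wnt16 at 1.17, and the bars of the 10 genes stay on one side of 0.

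The other 4 ligand genes had overlapping groups. Wnt9a, on chromosome 11 from 59306928 to 59333552, stood at 10.40 and 10.41 in nulliparous libraries, against 10.77, 10.78 and 10.25 at involution. Its difference of 0.19 ± 0.19 (SE, n = 2 and 3) was no larger than its error (adjusted p = 0.654 in limma). This size depended on a single library. Without involution replicate 3 the log2 difference was 0.37 (adjusted p = 0.126 in limma, and 0.0619 with the filter). Without involution replicate 1 or 2 it was 0.11. Wnt11, a ligand of cell movement in the embryo on chromosome 7 from 98835112 to 98855195, had 9.61 and 10.45 against 8.82, 9.09 and 9.77. Its difference was -0.80 ± 0.40 (SE, n = 2 and 3; adjusted p = 0.379 in limma). Wnt10b, known from the mammary placode of the mouse embryo and for restraining adipocyte formation, lies on chromosome 15 from 98770712 to 98778150. Its values were 8.90 and 10.01 against 8.48, 8.34 and 9.29, a difference of -0.75 ± 0.47 (SE, n = 2 and 3; adjusted p = 0.481 in limma). For Wnt11 and Wnt10b alike, nulliparous replicate 2 was the highest library and involution replicate 3 the next. On the second principal component of the genes past the filter, these 2 libraries also stood at -26.4 and -28.7. The other 3 stood between 4.1 and 31.4. The part of that component in both genes was not tested. Wnt5b, a close relative of Wnt5a on chromosome 6 from 119432531 to 119544347, had 9.0 and 8.27 against 8.68, 8.05 and 7.76, a difference of -0.46 ± 0.37 (SE, n = 2 and 3; adjusted p = 0.561 in limma). The sizes of these 3 negative differences depended on single libraries. Without nulliparous replicate 1 the log2 difference was -1.23 for Wnt11, -1.31 for Wnt10b and -0.10 for Wnt5b. Without nulliparous replicate 2 it was -0.38, -0.19 and -0.83 in the same order. Wnt5b also moved to -0.72 without involution replicate 1 and to -0.26 without involution replicate 3.

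Levels of different genes are compared per kilobase of exon and per 1000000 units of the library. In nulliparous libraries Wnt2 came first at 36.7 ± 2.4 (SD, n = 2), followed by Wnt9a at 10.6 ± 0.21 and Wnt5a at 8.87 ± 0.48. Wnt11 at 6.79 ± 2.61, Wnt10b at 5.67 ± 2.88 and Wnt4 at 5.33 ± 0.13 came next. Wnt5b at 3.93 ± 1.51, Wnt2b at 2.84 ± 0.52, Wnt16 at 2.13 ± 1.03 and Wnt6 at 1.71 ± 0.10 were the lowest. Among neighbours in this order, the library values of Wnt2 and Wnt9a, of Wnt9a and Wnt5a, and of Wnt4 and Wnt5b did not overlap, while the other 6 neighbouring pairs overlapped. At involution day 6 Wnt2 at 22.9 ± 4.26 (SD, n = 3) and Wnt9a at 11.1 ± 1.94 again came first. Wnt16 at 4.25 ± 0.86, Wnt5a at 3.80 ± 0.37, Wnt11 at 3.52 ± 1.36, Wnt10b at 2.97 ± 1.24 and Wnt5b at 2.55 ± 0.84 formed a run in which each overlapped the next. Wnt4 at 0.742 ± 0.12 and Wnt2b at 0.588 ± 0.16 overlapped each other below them, and Wnt6 at 0.258 ± 0.05 stood alone as the lowest.

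The summed level of the 10 genes per kilobase and per 1000000 units was 82.8 and 86.2 in nulliparous libraries, against 48.2, 54.4 and 55.4 at involution. Wnt2 made up 40.6% to 46.4% of the sum in nulliparous and 38.0% to 48.2% in involution libraries, so its share overlapped. The share of Wnt4 was 6.08% to 6.54% in nulliparous and 1.25% to 1.49% in involution libraries. That of Wnt16 was 1.70% to 3.32% and 6.21% to 9.48%, and that of Wnt9a 12.1% to 12.9% and 16.0% to 25.1%. Wnt9a took a larger share while its own level overlapped between the groups. These sums describe the libraries and were not tested.

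**Figure D3:**
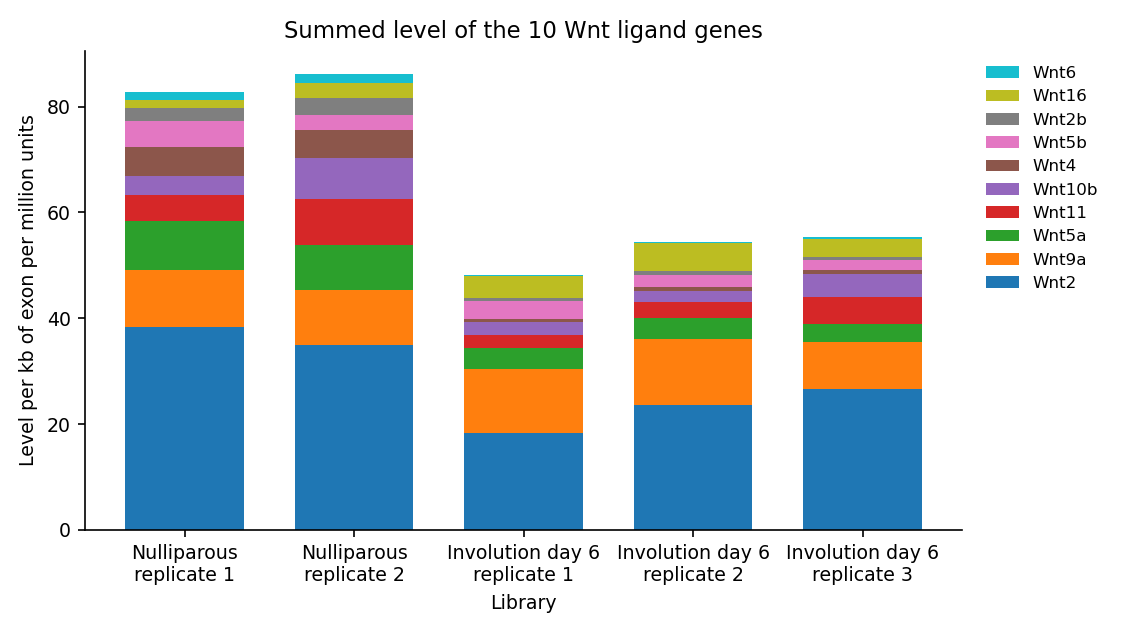
Level of the 10 Wnt ligand genes per kilobase of exon and per 1000000 units, stacked for each library. The bars reach 82.8 and 86.2 in nulliparous and 48.2 to 55.4 in involution libraries, with Wnt2 as the largest block in each.

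Wnt5a and Wnt5b, and Wnt2 and Wnt2b, are the closest relatives among the 10, with 77.8% and 69.9% identical bases in aligned coding sequence, against a median of 63.1% over all 45 pairs. The longest exact runs that their coding sequences share bear on whether reads of one gene could be counted for the other. They are shown for that reason. They start at base 994 of the Wnt5a and base 628 of the Wnt2 coding sequence (GENCODE M21), counted from 1 at the start codon, and hold 29 and 24 bases. No pair of the 10 genes shares a longer run than 29 bases in coding sequence. Exon sequence outside the coding part was not compared, so these runs cannot decide that question.
Wnt5a and Wnt5b: atggacggctgcgagctcatgtgctgtgg
Wnt2 and Wnt2b: ggtgtgagtggctcctgtactctg

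Within a library, the log2 ratio of Wnt2 to Wnt2b was 3.02 and 2.52 in nulliparous libraries, against 4.15, 3.94 and 4.66 at involution. It was higher in every involution library, by 1.48 on average, with p = 0.1 in an exact two-sided permutation test, the smallest p that 2 against 3 libraries can give. The log2 ratio of Wnt5a to Wnt5b was 2.41 and 3.09 in nulliparous libraries, against 1.72, 2.35 and 2.33 at involution. It differed by -0.61 on average (exact two-sided permutation p = 0.1), but nulliparous replicate 1 and involution replicate 2 were only narrowly apart, and without nulliparous replicate 2 the difference was -0.28. These 2 pairs were the only ones compared, and 0.1 remains 0.1 after Benjamini-Hochberg adjustment over both.

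Markers of other cells were set beside the ligand genes because Wnt4 and several other Wnt genes are also made by mammary epithelium. RNA of all 10 luminal epithelial markers listed was present in the sorted cells. Their mean was 10.88 and 9.45 in nulliparous libraries, against 9.98, 8.87 and 7.76 at involution, and their summed level 265 to 686 and 64.9 to 299 units per 1000000. None of the 10 passed in limma with or without the filter, and 1, the keratin gene Krt19, had an unadjusted p under 0.05. The most abundant of them, Krt19, stood at 12.51 and 11.43 against 10.97, 9.54 and 9.41. The 8 basal markers had means of 9.85 and 8.29 against 9.03, 7.77 and 6.82, summed levels of 83.5 to 283 and 28.1 to 127 units per 1000000, and 0 of 8 passed in limma (0 at an unadjusted p under 0.05). Their most abundant member was Acta2. No member of these lists had a mean under 10 units above a row without reads.

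The values of Wnt4 are set beside those of the luminal list here. Between the nulliparous libraries the luminal mean differed by 1.43 and Wnt4 by 0.00. Involution replicate 1 had a luminal mean 0.53 above that of nulliparous replicate 2, and its Wnt4 value differed from the one there by -2.84. The mean of 9 hormone-sensing luminal markers was 10.18 and 9.36 in nulliparous libraries, against 8.66, 7.67 and 7.83 at involution. The groups stood apart downward for 5 of the 9, Prlr, Foxa1, Cited1, Areg and Prom1, beside 25.1% of the genes past the filter. The groups overlapped for Esr1, Pgr, Ly6a and Tnfsf11. Of these 9 genes only Areg, which encodes an EGF receptor ligand, was called (log2 difference -5.62, adjusted p = 0.0451 in limma). Their summed level, 607 to 828 and 450 to 839 units per 1000000, overlapped, and its most abundant gene was Ly6a, which fibroblasts also express. Of the 9, Tnfsf11 alone had a mean under 10 units above a row without reads. The part of luminal, basal or hormone-sensing cells in the Wnt4 values was not tested.

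Wnt5b ranked the 5 libraries in the order of the luminal and of the basal mean, with nulliparous replicate 1 first, then involution replicate 1, nulliparous replicate 2, and involution replicates 2 and 3. The means of the pericyte and Schwann cell markers described below gave the libraries in this same order. The part of epithelial, pericyte or Schwann cell RNA in the Wnt5b values was not tested. Wnt11 and Wnt10b did not follow this order. Within each group, both were highest in the library with the lowest luminal mean, nulliparous replicate 2 and involution replicate 3. The part of other cells in the Wnt11 and Wnt10b values was not tested.

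**Figure D4:**
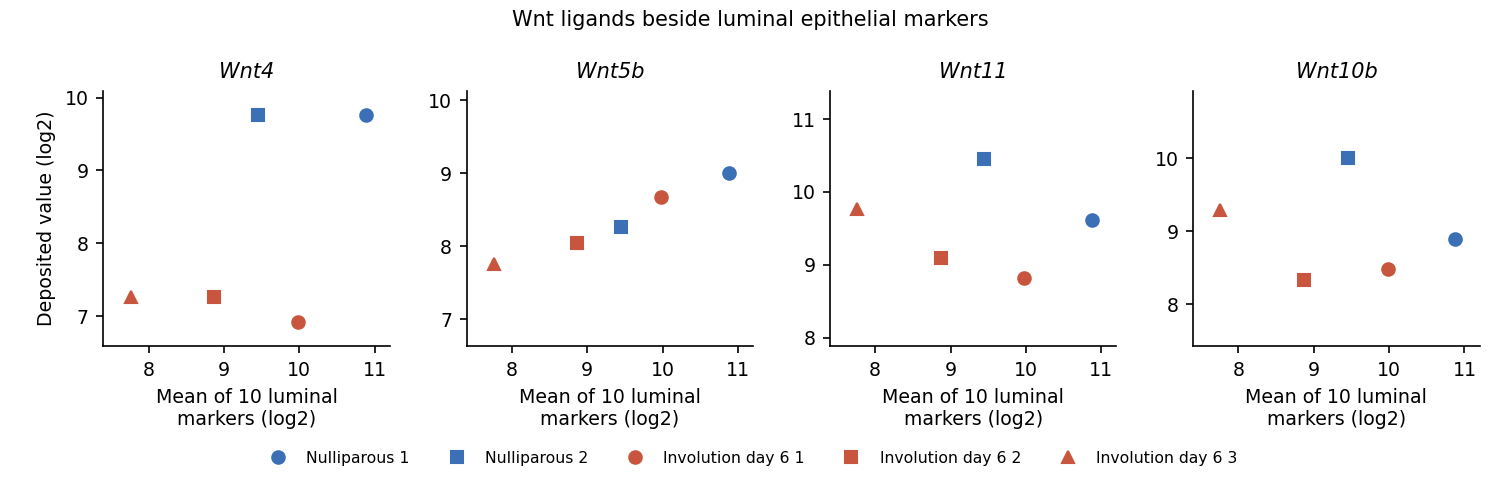
Deposited log2 value of Wnt4, Wnt5b, Wnt11 and Wnt10b in each library against the mean of 10 luminal epithelial markers in the same library. Each y axis spans the same range of log2 units around the gene's own values. Wnt4 stands at 9.76 in both nulliparous libraries and at 6.92 to 7.27 at involution, and Wnt5b has the same order of libraries as the marker mean.

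Marker lists of other cells differed in direction. The 9 fibroblast markers had means of 17.36 and 17.42 against 17.79, 17.67 and 17.52, with 0 called in limma (1 higher at an unadjusted p under 0.05). Of 8 macrophage markers 0 were called, 2 with the filter and 3 at an unadjusted p under 0.05, all higher, and their means were 8.07 and 7.28 against 9.43, 8.88 and 8.05. Of 7 endothelial, 6 pericyte and 4 Schwann cell markers 0 were called in limma with or without the filter, with 0, 0 and 1 lower at an unadjusted p under 0.05. Of 5 adipocyte markers Adipoq, Plin1, Lep and Cidec had means under the filter, 0 were called, and 3 were lower at an unadjusted p under 0.05. The mean of the adipocyte list did not overlap between the groups, with 6.56 and 6.15 against 5.89, 5.50 and 5.70. Its median log2 difference was -0.92. Adipoq, Plin1 and Cidec were lower, and Lep differed by 0.46. Fabp4, the member past the filter, overlapped between the groups, with 13.25 and 12.76 against 12.85, 11.98 and 12.38. The median of the Schwann cell list was -0.82, with 4 of 4 differences negative. Of these, 1 was without overlap, beside 25.1% of the genes past the filter without overlap downward. The part of adipocyte or Schwann cell RNA in the ligand values was not tested. Of 6 lymphocyte and plasma cell markers 2 were lower and 2 higher at an unadjusted p under 0.05 in limma. Cd3d was called lower near the value of a row without reads. Cd3e, with a mean of 386 units against 9.63 for Cd3d, was higher by 1.56 without passing (adjusted p = 0.164 in limma, and 0.055 with the filter). Jchain was higher by 4.88 and passed with the filter (adjusted p = 0.00637 in limma).

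The 9 other Wnt genes are in the table. Wnt3a and Wnt8a had no reads, and Wnt3, Wnt7a and Wnt8b stayed between 3.56 and 3.69, near that value, in each library. Wnt10a lies 6193 bases downstream of Wnt6 on the same strand, and its values were 7.04 and 6.65 in nulliparous libraries, against 4.51, 5.48 and 5.34 at involution. Like its neighbour, Wnt10a had separate groups, with a difference of -1.74 ± 0.39 (SE, n = 2 and 3) that passed with the filter only (adjusted p = 0.106 in limma, and 0.0282 with it). Wnt1 lies 11706 bases from Wnt10b on the opposite strand and had 5.28 and 6.27 against 4.44, 4.87 and 5.39, with the order of libraries seen in Wnt11. Wnt7b and Wnt9b had log2 differences of -1.41 and -0.81 without passing (adjusted p = 0.282 and 0.235 in limma). Of the 7 with reads 0 were called in limma, 1 with the filter, and 2 at an unadjusted p under 0.05, all lower.

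For each ligand gene that was called, the 3 protein-coding genes with the nearest profile, by mean absolute difference of centred values over the 5 libraries, were taken from 13570. For Wnt4 these were Dlx3, Lgr5 and Gfra2, at 0.0767, 0.148 and 0.168 on the log2 scale. Dlx3, a homeobox gene, had 9.05 and 8.98 in nulliparous libraries, against 6.04, 6.29 and 6.45 at involution. For Wnt5a they were Tiam2, Tmod2 and Fhl3, at 0.0374, 0.0439 and 0.0459, and for Wnt6 they were Prx, Grin3a and Gucy2e, at 0.0811, 0.0938 and 0.0944.

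Promoters are shown for the 2 ligand genes with the largest called differences, Wnt4 and Wnt6, and for Wnt16, whose involution libraries all lay above the nulliparous ones. Windows of 250 bases before to 50 after the RefSeq start (GRCm38.p6) matched 9 of the 10 genes, with 12 windows. Wnt5a had no match. Shown are the bases before the start in both RefSeq and GENCODE, on the plus strand, 5′ to 3′, with GC boxes (GGGCGG on either strand) in capitals, at chr4:137277385-137277488 for Wnt4, chr1:74771642-74771891 for Wnt6 and chr6:22287977-22288226 for Wnt16.
Wnt4: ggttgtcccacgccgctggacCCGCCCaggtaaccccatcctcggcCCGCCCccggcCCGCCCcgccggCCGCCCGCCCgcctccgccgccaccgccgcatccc
Wnt6: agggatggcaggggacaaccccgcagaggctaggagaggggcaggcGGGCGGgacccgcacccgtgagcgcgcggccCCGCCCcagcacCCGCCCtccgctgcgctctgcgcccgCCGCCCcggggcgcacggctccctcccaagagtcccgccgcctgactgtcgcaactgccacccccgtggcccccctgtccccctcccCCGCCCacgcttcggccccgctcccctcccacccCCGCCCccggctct
Wnt16: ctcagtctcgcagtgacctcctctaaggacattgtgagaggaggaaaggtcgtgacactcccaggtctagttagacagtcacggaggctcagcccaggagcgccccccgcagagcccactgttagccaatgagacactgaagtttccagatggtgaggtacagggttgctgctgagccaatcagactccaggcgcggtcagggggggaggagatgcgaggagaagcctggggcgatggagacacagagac

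The shown stretches hold 5, 6 and 0 GC boxes, those of Wnt4 including an overlapping pair. The full windows of Wnt4 and Wnt6 were 84.3% and 76.7% G and C with 51 and 31 CpG pairs, that of Wnt16 58.0% with 10, and the median over 32851 mouse windows was 52.7% with 7. GC boxes occurred in 9 of the 12 windows and in 35.7% of all windows. The letters CTTTGAT, a TCF and LEF motif, were in 3.73% of all windows and in 1 window each of Wnt11 and Wnt5b. The steroid receptor half-site TGTTCT was in 19.0% of all windows and the STAT motif TTCNNNGAA in 8.3%, each in 1 window of Wnt5b. The TATA box TATAAA was in 13.6%, and in 1 window of Wnt11. Both strands were searched, and apart from GC boxes none of these letters were in the windows of Wnt4, Wnt6 or Wnt16.

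Genes that make, receive and relay Wnt signals were counted in the same fit. Beside these lists, 0.830% of all genes tested were called lower and 1.14% higher. With the filter these shares were 4.66% and 6.65%. Of 4 genes of acylation, secretion and release, Trabd2b, a protease gene whose product cleaves Wnt proteins, fell by 1.20 ± 0.10 on the log2 scale (SE, n = 2 and 3; adjusted p = 0.0351 in limma). Its values were 12.34 and 12.20 in nulliparous libraries, against 10.97, 11.02 and 11.22 at involution. Porcn and Wls did not pass, with differences of 0.14 ± 0.08 and 0.24 ± 0.11 (adjusted p = 0.433 and 0.334 in limma). Of 16 receptor genes 1 fell, and 3 with the filter. Fzd4, a Frizzled receptor gene, fell by 1.00 ± 0.12 (adjusted p = 0.0456 in limma), from 11.37 and 11.42 to 10.57, 10.40 and 10.21, while Fzd2 and Ptk7 passed with the filter at -0.45 and -0.55. Ror2, a receptor gene for Wnt5a, differed by -0.55 without passing (adjusted p = 0.166 in limma, and 0.0656 with the filter).

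Of 9 genes of the R-spondin module, which controls Frizzled receptors on the cell surface, Rspo1 and Lgr5 fell. Their log2 differences were -2.02 ± 0.24 and -2.30 ± 0.25 (SE, n = 2 and 3; adjusted p = 0.0459 and 0.0412 in limma). Lgr5, a receptor gene for R-spondins, had 7.27 and 7.08 in nulliparous libraries, against 4.58, 5.01 and 5.03 at involution. Of 13 genes listed as Wnt antagonists 0 were called in limma. At an unadjusted p under 0.05 in limma 5 were lower and 1 higher, beside 10.6% and 9.36% of all genes tested. Among the lower ones, Sost and Sostdc1 had means under the filter. With the filter Wif1 and Apcdd1 were lower, with log2 differences of -2.27 and -0.88, and Dkk3 higher at 1.19. Of 11 cytoplasmic and nuclear genes, Tcf7, which encodes a partner of β-catenin on DNA, fell by 2.00 ± 0.20 (adjusted p = 0.0395 in limma), and Dvl1 and Tcf7l1 passed with the filter only. Of 12 genes known as β-catenin feedback targets in other tissues, some of which the other lists also hold, Lgr5 and Tcf7 fell and Apcdd1 passed with the filter only. Axin2, the target most often used as a readout, had 10.48 and 11.06 against 10.57, 10.70 and 10.43, a difference of -0.21 ± 0.20 (adjusted p = 0.65 in limma). In these pathway lists 0 genes were called higher over all 28311 genes in limma, and Dkk3, Ctnnb1 and Tcf7l2 were higher at an unadjusted p under 0.05. The list medians ran from -0.57 for the feedback targets to 0.01 for acylation, secretion and release.

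**Figure D5:**
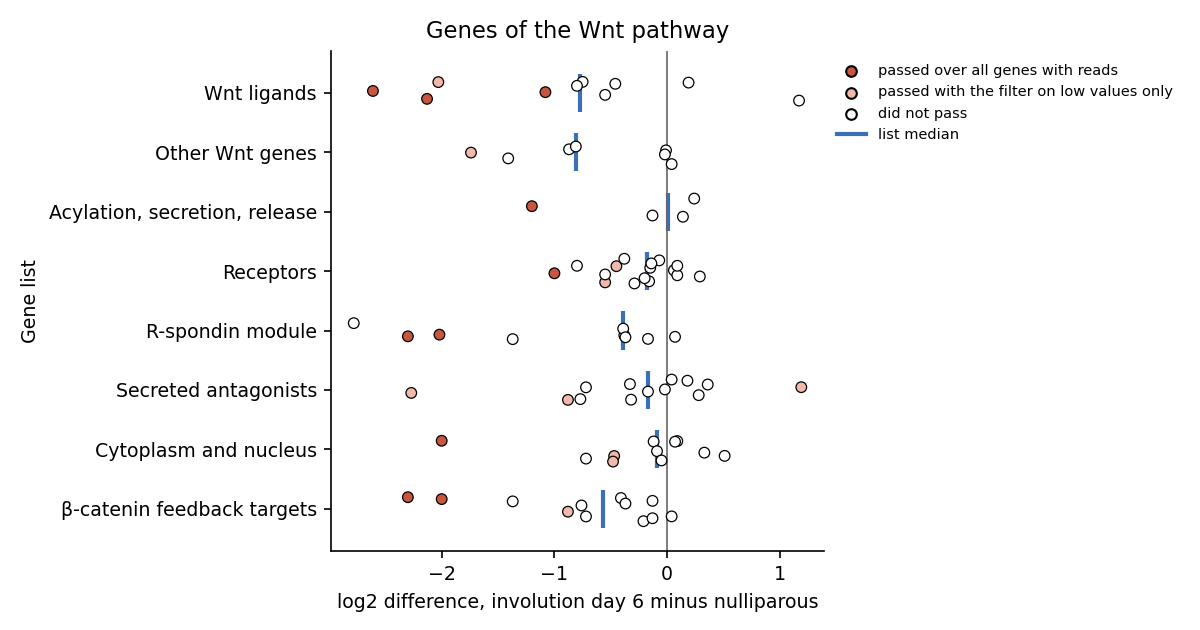
Log2 difference of each gene with reads in the Wnt ligand and pathway lists, with list medians as blue bars. Red points passed over all genes with reads, pale points with the filter on low values only. Called genes lie left of 0 in each list, with Dkk3 at 1.19 as the exception among pale points.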

How the data were processed

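The submitters' processing notes name bcl2fastq, STAR 2.4.2a and the build GRCm38. For counting, annotation, scaling and offset, the method is not given in the sources used here. A single table of log2 values was deposited, with 1 column per library, in which 17395 of 45706 rows held the value of a row without reads in each column. The authors' log2 values were tested as deposited with limma 3.58.1 in R 4.3.3 over the other 28311 genes, all 5 libraries, with a trend in the prior variance, two-sided, Benjamini-Hochberg adjustment and a threshold of 0.05. A filter on the mean, at least 4.45 or 10 units above a row without reads, left 15912 genes. The test was tried on simulated data. The members, lists, filter and other settings were chosen with earlier results of these data known. Described were the 10 members, the 9 other Wnt genes and, from each pathway list, the genes past the threshold or with the smallest p. The 3 nearest profiles of each called member were described too. From the luminal, hormone-sensing and basal marker lists the most abundant member was named. Further genes of the pathway and marker lists were named after their values were seen. Missing symbols, gene positions and exon lengths came from GENCODE M21 (GRCm38), promoters from RefSeq. Coding sequences were aligned with Biopython 1.88.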

Additional observations from a re-analysis of the deposited data

How the results depend on the processing

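The log2 differences of the 10 ligand genes kept their direction under all 17 alternatives, 12 planned and 5 added after seeing the data. Of the 170 values, 140 stayed on their side of the threshold, 20 no longer passed and 10 newly passed, and 9 of those 10 were of Wnt2b. The count of ligand genes called lower, 3, became 1 (Wnt4) with quantile normalization, where Wnt5a and Wnt6 had adjusted p of 0.0533 and 0.0527 in limma, and 0 with the replicate block. It was 4 with the filter, with median centring, with centring on the middle 50% of genes and with the offset removed and 1 added. Without 1 library it was 0, and 4 with the filter, while the count called higher was 0 to 1 (Wnt16, without nulliparous replicate 2 and with the filter). Over all genes the calls, 322 higher and 235 lower, became 1058 and 742 with the filter, 502 and 386 with the offset removed, 750 and 448 median centred, 846 and 514 centred on the middle genes, and 0 and 0 with the replicate block. Without 1 library they were 0 and 0, with 4489 to 5407 genes at an unadjusted p under 0.05 in limma, and with the filter 296 to 786 rises and 208 to 483 falls were called, with 710 and 447 without involution replicate 1. The block leaves 1 residual degree of freedom, and fewer libraries leave 2, so a lost call there does not show a smaller difference. Replicate numbers were shared by only 2 pairs, with correlations of deviations of 0.577 and 0.0628. Nulliparous replicate 2 and involution replicate 3, which differ in number, had 0.51. With 2 nulliparous libraries the deviations are equal and opposite, so these correlations cannot decide on pairing. Same-numbered libraries were not taken as pairs in the main fit. Under the block 5618 genes had an unadjusted p under 0.05 in limma. Where 1 nulliparous library was left, it was assumed to vary like the involution libraries. The cause of the other changes was not tested. Whole reads were not recovered, so sampling error of weakly expressed genes such as Wnt6 was judged only from the spread between libraries.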
